A study of Danio rerio with 121 samples.

Results

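The SR and hnRNP splicing factor genes of zebrafish were followed in whole embryos from the 6-somite stage (ss) to 96 h postfertilization (hpf). They were taken as all rows of the count table whose symbol starts with srsf or hnrnp, whatever their level. The rule found 39 of 24801 rows, with 16 *srsf* and 23 *hnrnp* genes, and all 39 passed the filter on low counts.

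SR proteins carry RNA recognition motifs and a domain rich in arginine and serine, and they bind exonic enhancers and help the spliceosome to define exons. hnRNP proteins coat nascent transcripts, and many of them, such as those of the A and B group, silence exons or splice sites, so that the balance of both families shapes alternative splicing. Both families act in nearly all cells, and their transcripts are in general abundant in early, dividing embryonic tissue. Many zebrafish members exist as duplicates from the genome duplication of teleost fish, named with a final a or b.

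The series measured RNA of whole embryos of the wild-type RIKEN WT (RW) strain, with no treatment, by Lasy-Seq, which reads the 3′ ends of transcripts. The 121 libraries cover 9 stages, with 16 libraries at 6 ss, 8 at 10 ss, 9 at 15 ss, 16 at 20 ss, 16 at 24 hpf, 8 at 32 hpf, and 16 each at 48, 72 and 96 hpf. They belong to 3 library series named from the sample titles and descriptions, a plain series of 52 libraries, an S series of 29 and a DrRyu series of 40. The question here is how the 2 families and their duplicates change over these stages. A group is a stage, and a level is in CPM, the count set relative to the library total after scaling by the trimmed mean of M-values (TMM). The sources differ on the embryos behind a library. The labels speak of individuals and the methods of pools for some stages. A sample table gives a number that is the same for all libraries of a stage and series, and none for the DrRyu series. In the plain series it is 50 at 6 ss and 5 at 96 hpf, and in the S series 25 and 1. Between these 2 stages, stage and this number cannot be told apart. In the plain series the number is also 50 at 15 ss and at 24, 48 and 72 hpf, and 10 at 20 ss. Its part in the changes described below was not tested. The p-values measure the spread between libraries, which may be partly technical.

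Library totals ran from 866854 to 21646478 counts, with a median of 3129763, and the lowest total was of a library of the S series at 96 hpf. The stage labels were checked with marker genes. The summed level of 5 segmentation genes had a median of 541 CPM at 6 ss and 4.93 CPM at 96 hpf, and that of 3 retina genes 5.30 and 2833 CPM. Mitochondrial transcripts took a median of 1.95% of counts in the plain and 1.80% in the S series at 6 ss, and 5.10% and 5.21% at 96 hpf. Their part in the falls described below was not tested. In bulk samples such as these, fewer cells of a type and less RNA per cell cannot be told apart.

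The summed level of both families was highest at 6 ss and lowest at 96 hpf. The 16 *srsf* genes together gave 3335 to 4170.5 CPM at 6 ss, with a median of 3650.2 CPM, and 1051 to 1332 CPM at 96 hpf, with a median of 1173 CPM. The 23 *hnrnp* genes gave 10141 to 12969 CPM at 6 ss, with a median of 12109 CPM, and 2149 to 3046 CPM at 96 hpf, with a median of 2804 CPM. No library of 96 hpf reached the lowest library of 6 ss in either family. The *srsf* genes made up a larger share of the 2 sums at 96 hpf than at 6 ss, with medians of 29.3% and 23.2% in the plain series and 32.6% and 24.3% in the S series. The ranges of these shares did not overlap, with 22.8% to 24.3% against 27.8% to 30.8% in the plain series and 23.5% to 25.3% against 28.7% to 33.8% in the S series. The sums weigh genes by level, so abundant genes set much of these shares. *hnrnpa0l*, *hnrnpaba*, *hnrnpabb* and *hnrnpa1b* had medians of 2523, 2220, 1795 and 1213 CPM at 6 ss. At 96 hpf these were 499, 305, 251 and 257 CPM. The share without these genes is not given. By gene, the median log2 fold changes of the 2 families were close, at −1.51 for *srsf* and −1.61 for *hnrnp*. The share did not grow at every stage, and in the plain series it was 27.5% to 29.7% at 24 hpf and 24.5% to 26.7% at 48 hpf, also with no overlap.

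**Figure D1:**
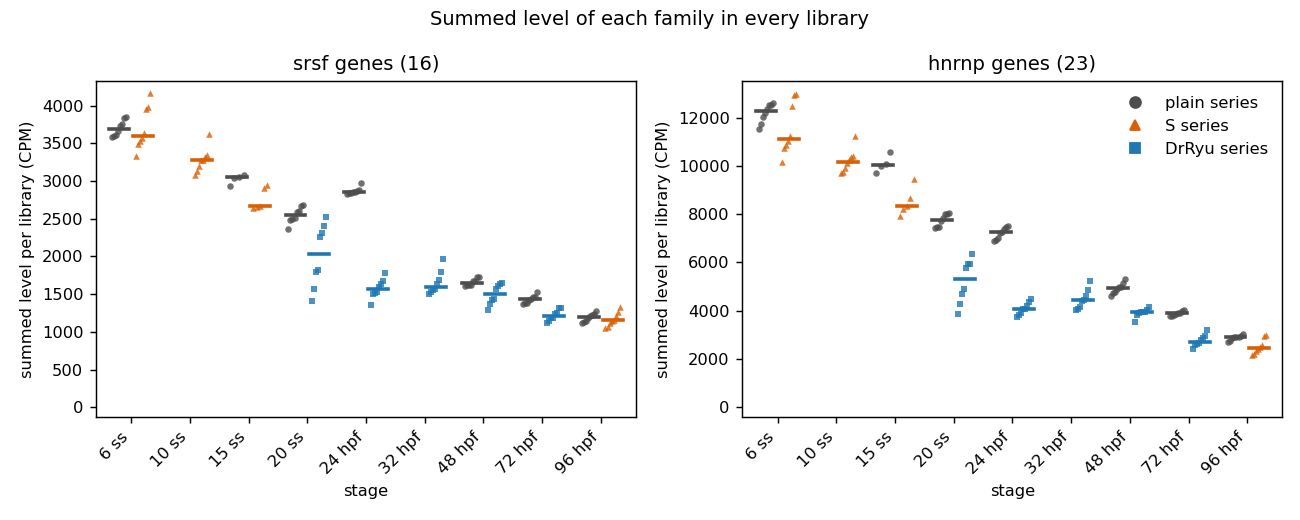
Summed level in CPM (y axis) of the 16 *srsf* genes (left) and 23 *hnrnp* genes (right) in each of 121 libraries by stage (x axis), with points sorted by level and coloured by library series, and bars at the median. At 96 hpf all libraries lie between 1051 and 1332 CPM for *srsf* and between 2149 and 3046 CPM for *hnrnp*, below every library of 6 ss.

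A few genes carried much of each sum. *hnrnpa0l* gave 19.7% of the CPM summed over the *hnrnp* genes and all libraries, *hnrnpaba* 15.5%, *hnrnpabb* 12.0% and *hnrnpa1b* 10.6%. Among the *srsf* genes, *srsf2a* gave 14.3%, *srsf3b* 13.6% and *srsf5a* 12.9%. These shares are of summed CPM, not of counted molecules, and do not rank the genes by molecules. At the other end, *srsf7b* had 110 counts over all 121 libraries and *hnrnpul1l* gave 0.02% of its family.

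Over the whole course the members mostly fell. edgeR's quasi-likelihood test with Benjamini-Hochberg adjustment over 21638 genes called 32 of 39 members lower, 13 *srsf* and 19 *hnrnp*, while it called 26.8% of all genes lower. Of the 32, 29 fell by at least 1 on the log2 scale, against 19.4% of all genes. Only *srsf1b*, *srsf7b*, *hnrnpa3* and *hnrnph3* were called higher, 4 of 39, while 37.2% of all genes were. Over all 9 stages 38 members differed between stages, against 78.0% of all genes, and the exception was *hnrnpul1l*.

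The median log2 fold change was −1.51 for *srsf* and −1.61 for *hnrnp*, against 0.28 for all genes. All members together had a median of −1.53, which lay 1.81 below that of all genes. Without TMM the median of all genes was 0.08 and with DESeq2 0.56, and the median of the members relative to it was −1.82 and −1.83. In the plain series 31 members, and in the S series 30, were lower in all 8 libraries of 96 hpf than in all 8 of 6 ss, against 12.7% and 12.5% of all genes. In the other direction 3 and 1 were higher in all 8, against 15.9% and 13.5%. Between the plain and S series the change differed for 1 member, *hnrnpa0a*, against 0.795% of all genes, with −0.75 in the plain and −1.62 in the S series. The fall of *hnrnpd* was not called in the S series alone or by DESeq2, and *srsf7b* did not pass the stricter filter or the filter within the S series.

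**Figure D2:**
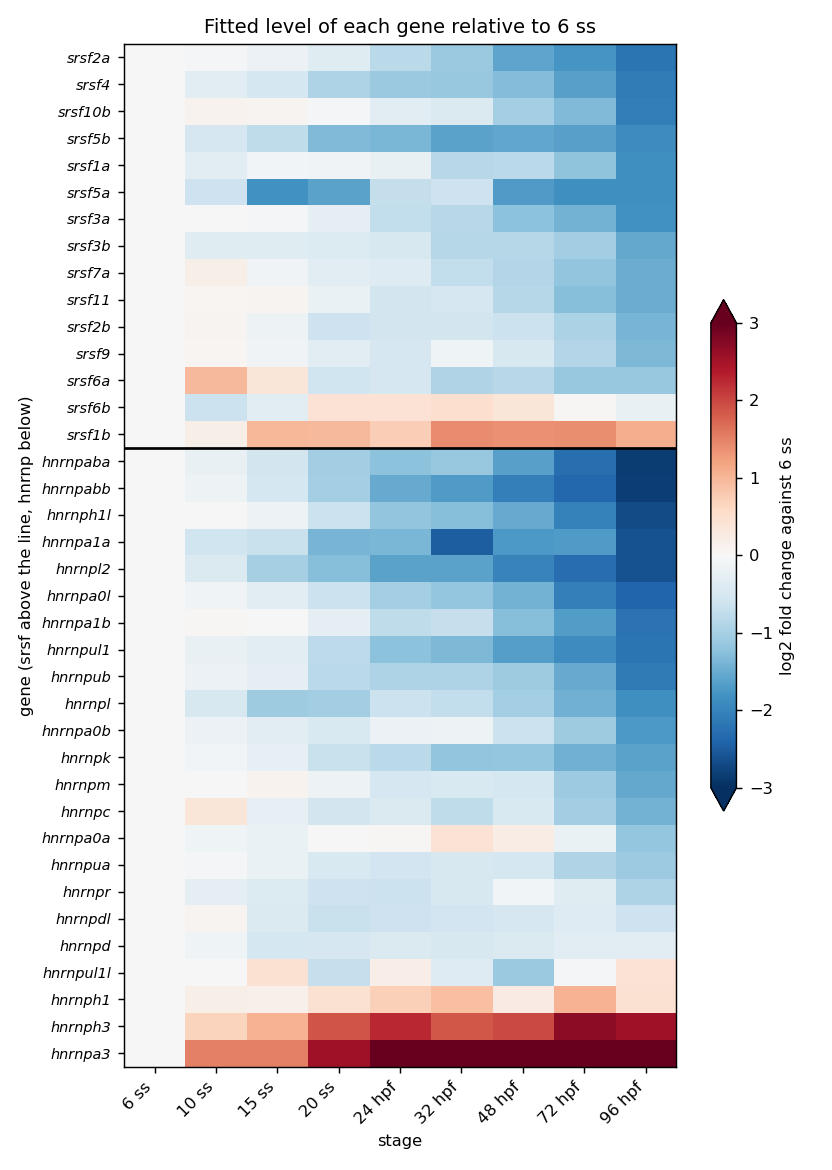
Fitted log2 fold change against 6 ss (colour, clipped at 3 in either direction) of 38 members (y axis, *srsf* above the line and *hnrnp* below, sorted by the change at 96 hpf) at each stage (x axis). *srsf7b*, which had no read at 6 ss, is not drawn. Most rows turn blue toward 96 hpf, and *hnrnpa3*, *hnrnph3* and *srsf1b* turn red.

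The largest falls were of *hnrnp* genes. *hnrnpaba* and *hnrnpabb* encode the A/B type protein, which in mammals binds RNA and is found on cytoplasmic messenger RNA as well as in the nucleus. *hnrnpaba* had 1812 to 2475 CPM over 16 libraries of 6 ss, with a median of 2219.8, and 197 to 393 CPM over 16 of 96 hpf, with a median of 305. *hnrnpabb* had 1363 to 1949.9 CPM, with a median of 1795, and 190.4 to 309 CPM, with a median of 251. For both genes the stages were far apart, with no overlap between libraries. On the log2 scale *hnrnpaba* fell by 2.85 ± 0.08 (SE; edgeR adjusted p = 2.01e-69) and *hnrnpabb* fell by 2.82 ± 0.07 (edgeR adjusted p = 2.37e-70).

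*hnrnph1l*, of the H group that binds runs of guanosines, had 398 to 514 CPM at 6 ss, with a median of 448, and 43.4 to 92.9 CPM at 96 hpf, with a median of 74.3. It fell by 2.69 ± 0.09 on the log2 scale (SE; edgeR adjusted p = 3.62e-60). *hnrnpl2*, of the L group that binds CA-rich RNA, had 334 to 516 CPM, with a median of 413, and 41.3 to 89.5 CPM, with a median of 70.7. It fell by 2.60 ± 0.09 (SE; edgeR adjusted p = 1.8e-56). *hnrnpa0l*, of the A0 group, had 2096 to 2738 CPM, with a median of 2523, and 392 to 569 CPM, with a median of 499. It fell by 2.37 ± 0.06 (SE; edgeR adjusted p = 1.57e-72). None of these 3 genes had a library of 96 hpf that reached the level of 6 ss. The span of *hnrnpa0l* overlaps that of *hnrnpa0b* in the RefSeq annotation of the GRCz12tu assembly, and without strand in the counting their reads may not be separate.

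*hnrnpa1a*, of the A1 group that silences exons, had lower levels and more spread. It had 33.0 to 53.0 CPM at 6 ss, with a median of 46.1, and 1.22 to 16.6 CPM at 96 hpf, with a median of 5.99. The libraries of the 2 stages did not overlap, and the gene fell by 2.61 ± 0.34 on the log2 scale (SE; edgeR adjusted p = 1.34e-11). The DrRyu series was lower than the plain series, with 0 to 7.83 CPM against 11.9 to 24.5 CPM at 24 hpf, so its level of 0 to 3.16 CPM at 32 hpf, where all libraries are of the DrRyu series, cannot be told apart from the series. Its duplicate *hnrnpa1b* fell by 2.22 ± 0.08 (SE; edgeR adjusted p = 8.72e-58).

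The other *hnrnp* falls formed a range. *hnrnpul1* and *hnrnpub*, of the U and U-like group, whose mammalian member U is also known as a scaffold attachment factor, fell by 2.18 ± 0.11 and 2.12 ± 0.08 (SE) on the log2 scale. *hnrnpl* fell by 1.83 ± 0.10, *hnrnpa0b* by 1.71 ± 0.08 and *hnrnpk*, which encodes a protein with KH domains that binds C-rich sequence, by 1.61 ± 0.10. *hnrnpm* fell by 1.53 ± 0.07 and *hnrnpc*, which in human binds uridine tracts and competes with the splicing factor U2AF, fell by 1.41 ± 0.11. The smallest called falls were those of *hnrnpr* (−0.91 ± 0.10), *hnrnpdl* (−0.62 ± 0.08) and *hnrnpd* (−0.33 ± 0.08), and the D group encodes proteins that bind AU-rich elements and influence decay of messenger RNA.

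The *srsf* falls were more even. The largest was of *srsf2a*, a duplicate of the gene of SC35, a classical marker of nuclear speckles, which fell by 2.19 ± 0.07 (SE; edgeR adjusted p = 1.32e-61). *srsf4* fell by 2.09 ± 0.10 and *srsf10b*, whose human counterpart represses splicing when dephosphorylated, fell by 2.07 ± 0.13. The 10 other called falls ran from −1.89 for *srsf5b* to −1.14 for *srsf6a*. Within this range lay *srsf1a* (−1.85 ± 0.12), a duplicate of the gene of the SR protein ASF/SF2, *srsf3b* (−1.53 ± 0.08), *srsf7a* (−1.48 ± 0.10) and *srsf11* (−1.48 ± 0.09).

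The 4 genes called higher had low levels at 6 ss. *hnrnpa3*, of the A group, had 0 to 3.07 CPM at 6 ss, with reads in 3 of 16 libraries and 13 counts in all, and 3.56 to 17.8 CPM at 96 hpf, with a median of 9.20. The 2 stages did not overlap in any library, and the log2 fold change was 5.04 ± 0.58 (SE; edgeR adjusted p = 6.97e-14). *hnrnph3*, of the H group, had 0 to 3.01 CPM at 6 ss, with a median of 1.63, and 0 to 15.7 CPM at 96 hpf, with a median of 7.38. Its libraries overlapped, since 1 of 16 at 96 hpf had no read, and the log2 fold change was 2.51 ± 0.40 (SE; edgeR adjusted p = 2.11e-08). Spans of *nfe2l2a* and of *hnrnpa3* overlap in RefSeq, so that part of the reads may not be its own.

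*srsf1b* rose from 9.37 to 34.3 CPM, with a median of 21.8, at 6 ss to 32.4 to 63.0 CPM, with a median of 49.7, at 96 hpf. The ranges overlapped over all 16 libraries, but not in the plain series, with 14.4 to 30.8 CPM and 34.7 to 56.9 CPM. The log2 fold change was 1.09 ± 0.16 (SE; edgeR adjusted p = 8.91e-10). At 24 hpf it had 28.0 to 49.3 CPM in the plain and 6.63 to 22.5 CPM in the DrRyu series, with no overlap. *srsf7b* had no read in the 16 libraries of 6 ss and 47 counts in 8 of 16 libraries of 96 hpf, up to 4.46 CPM. Its detection also differed by series. It had no read in the DrRyu series at any stage, while plain libraries had 9 counts at 20 ss, 14 at 24 hpf, 9 at 48 hpf and 24 at 72 hpf. Against a floor of 3 counts over the group of 6 ss, and with the 47 counts taken as exact, it was at least 19.8-fold higher (edgeR adjusted p = 3.09e-06). With *srsf7b* at this bound the median of the *srsf* genes stayed at −1.51.

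The 3 members not called between 6 ss and 96 hpf were *srsf6b*, with a log2 fold change of −0.23 ± 0.12 (SE; edgeR adjusted p = 0.0787), *hnrnph1*, with 0.45 ± 0.25 (edgeR adjusted p = 0.106), and *hnrnpul1l*, with 0.42 ± 0.74 (edgeR adjusted p = 0.641). *hnrnph1* had 1.48 to 17.9 CPM at 6 ss, with a median of 8.88, and 4.05 to 29.6 CPM at 96 hpf, with a median of 11.9. Its libraries overlapped widely. *hnrnpul1l* had reads in 11 of 16 libraries at 6 ss and in 9 of 16 at 96 hpf, and such counts set wide errors. *hnrnph1* was called higher in the plain series alone, at 0.73, and by DESeq2, at 0.72. With a mean for each series and stage in the edgeR fit, *srsf6b* had 0.03 ± 0.16 (SE) in the plain series and was not called. In the S series it was called lower, at −0.51 ± 0.16 (edgeR adjusted p = 0.0049). The difference between the 2 series was not called (edgeR adjusted p = 0.286).

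**Figure D3:**
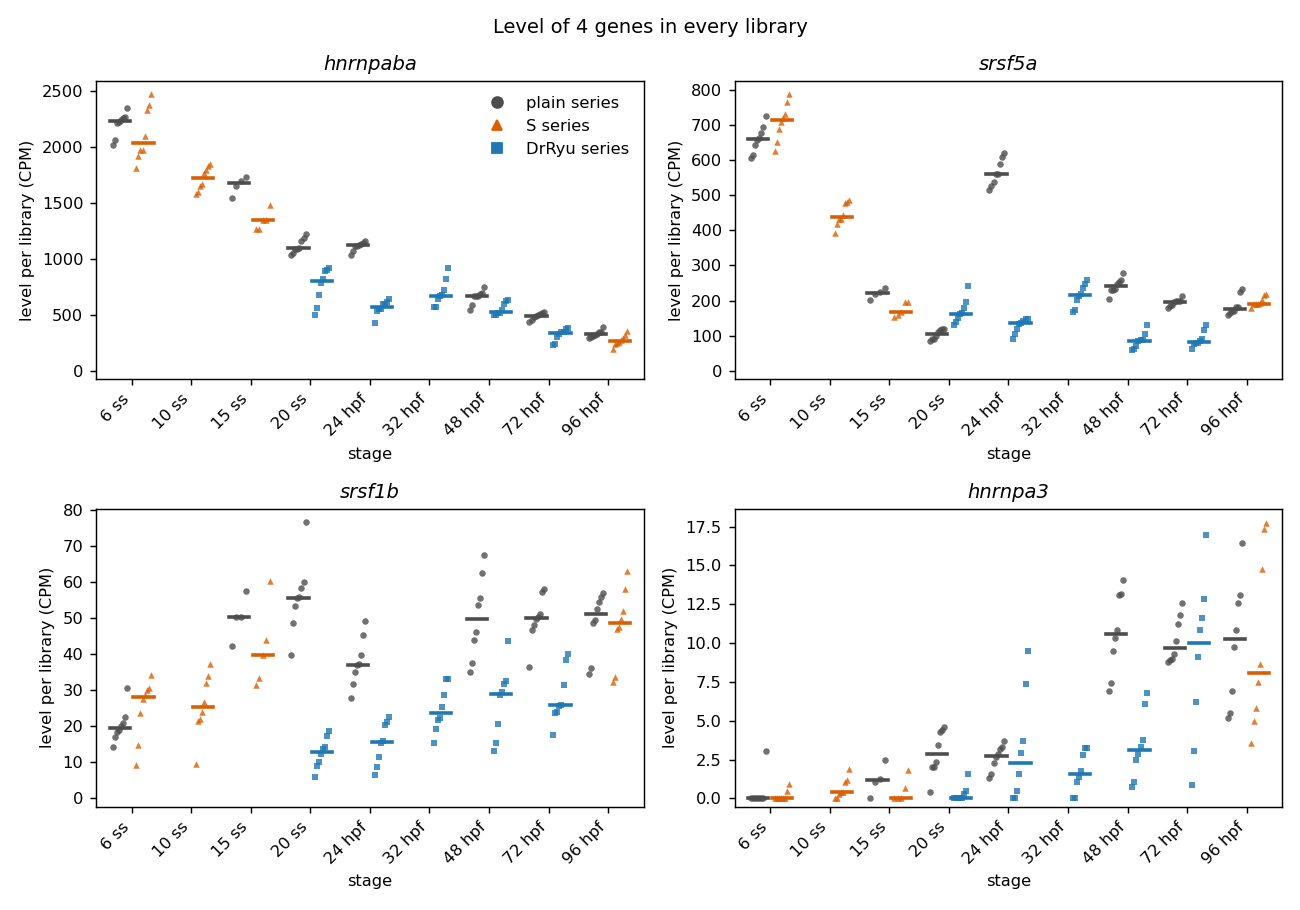
Level in CPM (y axis, a separate scale for each gene) of *hnrnpaba*, *srsf5a*, *srsf1b* and *hnrnpa3* in each of 121 libraries by stage (x axis), with points sorted by level and coloured by library series, and bars at the median. *hnrnpaba* falls from a median of 2219.8 CPM at 6 ss to 305 CPM at 96 hpf, while *srsf1b* and *hnrnpa3* rise, and the plain and DrRyu series lie apart at 24 hpf for *srsf5a*.

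Most members were highest at the start of the course and lowest at its end. In the fitted levels 20 of 39 members, 7 *srsf* and 13 *hnrnp*, were highest at 6 ss, against 15.6% of 20459 genes, and 29 were lowest at 96 hpf, against 20.9%. A further 9 were highest at 10 ss, against 10.8% of genes. All libraries of 10 ss are of the S series, so these peaks depend on the series term. For some the measured median was lower at 10 ss than at 6 ss, as for *hnrnpa1b* (1177 and 1213 CPM). For others it was higher, as for *srsf6a* (282 and 175 CPM). *srsf2a*, *srsf3a*, *srsf4*, *hnrnpa0l*, *hnrnpabb*, *hnrnpl2*, *hnrnpub* and *hnrnpul1* fell in the fitted level at each of the 8 steps between neighbouring stages. The share of all genes with such a course is not given here. Some of these steps were near 0, as for *srsf3a*, with a log2 fold change of −0.006 at 10 ss against 6 ss. The fitted steps also depend on the series term. *hnrnpa3*, *hnrnph1* and *hnrnph3* were highest at 72 hpf, and *srsf1b*, *srsf6b* and *hnrnpa0a* at 32 hpf. All libraries of 32 hpf are of the DrRyu series, so a peak there cannot be told apart from the series. For *srsf1b* it rests on the series term, since the measured median was 23.8 CPM at 32 hpf and 49.7 CPM at 96 hpf. The measured medians of *srsf6b* and *hnrnpa0a* were also highest at 32 hpf, at 100 and 358 CPM.

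Called changes between neighbouring stages were mostly falls. Of 39 members, 5 were called lower and 1 higher from 6 to 10 ss, against 0.605% and 1.73% of all genes. From 10 to 15 ss 7 fell and 1 rose, against 0.268% and 1.12%, and from 15 to 20 ss 10 fell and 1 rose, against 1.7% and 3.26%. The step from 20 ss to 24 hpf had 11 falls and 3 rises, of *srsf5a*, *hnrnpa0b* and *hnrnpl*, against 9.65% and 17.2%. The number of falls was lowest from 24 to 32 hpf, with 4 falls, against 5.07%, and 3 rises, of *srsf1b*, *srsf9* and *hnrnpa0a*, against 7.39%. There were then 11 falls and 1 rise to 48 hpf, against 13.3% and 8.75%. The number of called falls was highest late. There were 23 from 48 to 72 hpf and 19 from 72 to 96 hpf, against 8.78% and 5.83% of all genes. In these last steps 1 member, *hnrnph1*, rose to 72 hpf, against 9.34%, and 0 rose to 96 hpf by edgeR, against 4.36%. Also 0 rose to 96 hpf at an unadjusted p under 0.05, where the share of all genes is not given. Stages held in different library series enter several of these steps. The steps also differ in length and in numbers of libraries, so the counts do not show when the fall was fastest.

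The first day held part of the fall. Between 6 ss and 24 hpf 29 members were called lower, 12 *srsf* and 17 *hnrnp*, against 16.9% of all genes, and 6 were called higher, against 25.4%. Of these, 9 fell and 3 rose by at least 1 on the log2 scale, against 8.58% and 19.1% of all genes. The count of 9 was 15 without TMM and 4 in the plain series alone, and shares of all genes in these 2 settings are not given. The median log2 fold change was −0.51 for *srsf* and −0.63 for *hnrnp*, against 0.16 for all genes. *hnrnpl2* (−1.59 ± 0.10), *hnrnpabb* (−1.51 ± 0.08) and *srsf5b* (−1.37 ± 0.11) had fallen most by then among genes with small errors. *srsf1a* (−0.23 ± 0.13) and *hnrnpa0b* (−0.17 ± 0.08), both of which fell later, were not called. Of the 6 higher calls 2, of *hnrnpa3* and *hnrnph3*, held in all 8 alternatives. Those of *srsf1b* and *hnrnph1* were lost without TMM and with no series term, that of *srsf6b* without TMM, and that of *srsf7b* under the stricter filter and by DESeq2, and the plain series alone gave medians of −0.25 and −0.43.

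From 48 to 96 hpf the fall went on. 28 members were called lower, 12 *srsf* and 16 *hnrnp*, against 14.2% of all genes, and 0 were called higher by edgeR, against 12.4%. Also 0 were higher at an unadjusted p under 0.05, where the share of all genes is not given. The count of rises depended on the setting, and edgeR called 1 higher without TMM and 2 with no series term, and DESeq2 called 1. A fall of at least 1 was called for 8, against 5.35% of all genes. It was called for 3 without TMM or with no series term, 4 in the plain series alone and 2 by DESeq2. Shares of all genes in these other settings are not given, so the smaller counts cannot be set against them. No rise of that size was called in the main fit, against 8.92% of all genes. The median log2 fold change was −0.61 for *srsf* and −0.81 for *hnrnp*, against 0.01 for all genes. *hnrnpa0a* fell by 1.38 ± 0.12 on the log2 scale here (SE; edgeR adjusted p = 2.07e-20), after a log2 fold change of 0.19 ± 0.10 from 24 to 48 hpf that was not called. *hnrnpd* and *hnrnpdl*, at 0.11 ± 0.10 and −0.12 ± 0.10, were not called lower in these days.

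The middle of the course, from 24 to 48 hpf, differed between the library series. The joint fit called 19 members lower, 9 *srsf* and 10 *hnrnp*, against 18.1% of all genes, and *srsf1b* and *hnrnpr* higher, against 17.3%. In this fit no member was called with a change of at least 1 on the log2 scale in either direction, against 7.85% lower and 11.3% higher of all genes. A fit of the DrRyu libraries alone called 2 members lower and 3 higher, against 15.3% of genes called in either direction. With a mean for each series and stage in 1 edgeR fit, 23 members were called lower and 2 higher in the plain series, against 14.3% and 11.9% of all genes, and 6 lower and 6 higher in the DrRyu series, against 13.1% and 14.3%. *srsf5b* and *hnrnpd* were called in opposite directions, with −0.60 ± 0.11 and −0.32 ± 0.10 (SE) on the log2 scale in the plain series and 0.30 ± 0.11 and 0.35 ± 0.10 in the DrRyu series. In the plain series 18 members were lower in all 8 libraries of 48 hpf than in all 8 of 24 hpf, against 9.74% of all genes, and in the DrRyu series 2 were, against 1.03%. In the plain series 1 member was higher in all 8 libraries, against 6.74%. The interaction of series and stage was called for 15 of 39 members, against 4.58% of all genes, and in all 15 the plain series had the more negative change.

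The levels of the series were apart at 24 hpf. There the *srsf* sum was 2835 to 2973 CPM in 8 plain libraries and 1362 to 1787 CPM in 8 DrRyu libraries, and the *hnrnp* sum 6885 to 7507 and 3733 to 4491 CPM. Of 39 members, 24 were lower in every DrRyu library than in every plain library at this stage, against 4.05% of all genes, and 0 were higher, against 0.652%. At 20 ss 12 members were lower in this sense and 2 higher, against 1.99% and 1.28% of all genes, at 48 hpf 7 and 1, against 2.08% and 0.901%, and at 72 hpf 9 and 1, against 3.08% and 1.24%. Between S and plain libraries of 15 ss 11 were lower in the S series and 1 was higher, against 3.09% and 2.39%. At 96 hpf, between the S and plain series, 0 were lower, against 0.185%, and at 6 ss 1 was, against 0.166%. With shares this small, the count of 0 does not show equal levels. An edgeR fit with a mean for each series and stage called some members lower in the S series at 96 hpf. They were *hnrnpa0a* (−0.51), *hnrnpr* (−0.49), *hnrnpm* (−0.43), *hnrnpa0b* (−0.37) and *hnrnpa0l* (−0.27, log2 scale). The other members were not called there, and the share of all genes is not given. The summed level of 7 replication genes at 24 hpf was 1870.3 to 2058 CPM in the plain and 1191 to 1815 CPM in the DrRyu series, and mitochondrial transcripts took a median of 2.15% and 3.41%. The part of these in the difference was not tested, and series, year of the libraries and handling cannot be told apart.

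*srsf5a* had an uneven course. The gene encodes an SR protein, whose rat counterpart is known as an insulin-induced gene of regenerating liver. In the plain series it had 605 to 725 CPM at 6 ss, with a median of 661, then 83.6 to 119 CPM at 20 ss, with a median of 105, and 514 to 622 CPM at 24 hpf, with a median of 562. The libraries of 20 ss were thus below all others of these 3 groups. The number recorded for a plain library was 10 at 20 ss, and 50 at 6 ss and 24 hpf. It was also 50 at 15 ss, where *srsf5a* had 152 to 235 CPM over the 9 libraries of the plain and S series. The part of this number in the course of *srsf5a* was not tested. In the DrRyu series the median was 162 CPM at 20 ss, 135 CPM at 24 hpf and 216 CPM at 32 hpf. The S series fell from a median of 715 CPM at 6 ss to 439 CPM at 10 ss and 168 CPM at 15 ss. The step from 10 to 15 ss gave a log2 fold change of −1.20 ± 0.21 (SE; edgeR adjusted p = 6.5e-05), and that from 20 ss to 24 hpf gave 0.87 ± 0.16 in the joint fit (edgeR adjusted p = 1.98e-06). Whether this last step differs between the series was not tested.

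*srsf6a* was called higher at 10 ss than at 6 ss, by 0.97 ± 0.16 on the log2 scale (SE), the only member called higher in this step, against 1.73% of all genes. All 10 ss libraries are of the S series, where it had 104 to 144 CPM at 6 ss, with a median of 128, and 249 to 366 CPM at 10 ss, with a median of 282. The plain libraries of 6 ss had 206 to 276 CPM, with a median of 225, above every S library of that stage. *srsf6a* was the 1 member with such a gap at 6 ss.

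Duplicates were compared by the log2 ratio of the 2 copies within a library, which needs no scaling between libraries. Reads that fit both copies of a pair may have been split between them in the counting, so the ratios of close copies are uncertain. The symbols gave 13 pairs, and 12 were compared, since *srsf7a* and *srsf7b* were left out once the counts of *srsf7b* were seen. Of these *hnrnpd* and *hnrnpdl* are distinct genes in human too. From 6 ss to 96 hpf the ratio changed in 11 of 12 pairs in the plain series and 7 in the S series, at p under 0.05 in an exact permutation test, two-sided, of 8 libraries against 8. These p-values are not adjusted over the pairs. How often the ratio of other gene pairs changes was not tested, while 64.0% of all genes were called between these stages. In 6 pairs the ratio passed in both series with the same sign. Among these, the pair of *hnrnpul1* and *hnrnpul1l* depended on the small number added to each count (the pseudocount), as given below. With these numbers the smallest p the test can give is 0.0001554, which 4 pairs reached in the plain and 2 in the S series.

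The pairs of *srsf1a* and *hnrnph1* had the smallest p in both series. *srsf1a* gave a median of 94.0% of the counts of *srsf1a* and *srsf1b* at 6 ss in the plain series, with 89.2% to 95.4%, and 64.0% at 96 hpf, with 51.2% to 72.3%. In the S series it gave 93.0% and 66.6%, and the ranges of the stages did not overlap in either series. The log2 ratio fell by 3.09 in the plain and by 2.91 in the S series (exact permutation p = 0.0001554 in each). From 24 to 48 hpf it also fell by 1.47 in the plain series (exact permutation p = 0.0001554) and by 1.01 in the DrRyu series (exact permutation p = 0.01911). The fall of *srsf1a* and the rise of *srsf1b* given above both entered this ratio.

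*hnrnph1* gave a median of 1.67% of the counts of *hnrnph1* and *hnrnph1l* at 6 ss in the plain series and 13.0% at 96 hpf, and 2.25% and 16.8% in the S series. The log2 ratio rose by 3.19 in the plain and 3.26 in the S series (exact permutation p = 0.0001554 in each). Both the fall of *hnrnph1l* and the level of *hnrnph1* enter this ratio. For *srsf7a* and *srsf7b* no change is given, since *srsf7b* had no read in any library of 6 ss or in 8 of 16 of 96 hpf, and the ratio there is set by the pseudocount. *srsf7a* gave every count of this pair at 6 ss and at least 95.7% in each library of 96 hpf.

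**Figure D4:**
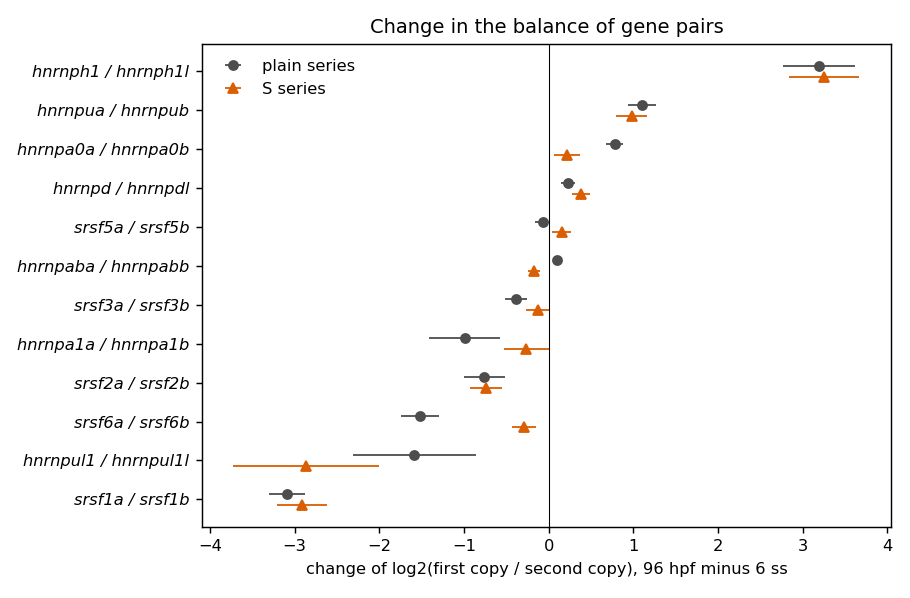
Change of the log2 ratio of the first to the second copy from 6 ss to 96 hpf (x axis) for 12 pairs (y axis) in the plain and S series, 8 libraries a stage, with bars of 1 standard error from the spread of libraries within the stages. The pairs of *hnrnph1* (3.19 and 3.26) and *srsf1a* (−3.09 and −2.91) lie far from 0, and those of *srsf5a* and *hnrnpaba* near it.

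The other duplicates split more weakly, except that *hnrnpul1* and *hnrnpul1l* came near the *srsf1a* pair in the S series. *hnrnpua* kept more of its level than *hnrnpub*, with a rise of the ratio of 1.10 in the plain and 0.98 in the S series (exact permutation p = 0.0003108 and 0.0004662). *srsf2a* lost against *srsf2b*, by −0.76 and −0.74 (exact permutation p = 0.008702 and 0.0004662). The pairs of *srsf6a* and *hnrnpa0a* changed in the plain series, by −1.52 and 0.78 (exact permutation p = 0.0001554 in each), and their values in the S series were −0.29 and 0.22 (exact permutation p = 0.06014 and 0.1719). *hnrnpul1* against *hnrnpul1l* changed by −1.59 and −2.86 (exact permutation p = 0.04911 and 0.006527), and both fell above 0.05 with a pseudocount of 0.1.

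The pairs of *hnrnpaba* and *srsf5a* changed least between 6 ss and 96 hpf. *hnrnpaba* gave a median of 55.1% of the counts of *hnrnpaba* and *hnrnpabb* at 6 ss and 55.1% at 96 hpf, while both genes fell by over 2 on the log2 scale. The change of the log2 ratio was 0.10 in the plain and −0.17 in the S series, of opposite sign (exact permutation p = 0.04242 and 0.02502). *srsf5a* gave 74.9% of the counts of *srsf5a* and *srsf5b* at 6 ss and 75.7% at 96 hpf, with changes of −0.07 and 0.15 (exact permutation p = 0.4406 and 0.1829). Both pairs moved between these stages. In the plain series *hnrnpaba* gave 53.0% to 55.3% at 6 ss and 57.0% to 66.6% at 48 hpf, with no overlap, and its ratio rose by 0.22 from 24 to 48 hpf (exact permutation p = 0.01523), while the DrRyu series gave 0.06 (exact permutation p = 0.5726). The *srsf5a* pair also differed by series. At 48 hpf *srsf5a* gave 71.4% to 82.6% in the plain and 32.1% to 40.2% in the DrRyu series, and at 24 hpf 81.2% to 85.7% and 39.9% to 57.9%. From 24 to 48 hpf its ratio fell by 0.60 in the plain series (exact permutation p = 0.0006216) and by 0.90 in the DrRyu series (exact permutation p = 0.0003108).

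Other splicing genes were taken from lists of known roles, to be read against the 26.8% of all genes called lower and 37.2% called higher. The core spliceosome list, with subunits of the small nuclear ribonucleoproteins and their helpers, had 40 of its 41 genes tested, and all 40 were called lower from 6 ss to 96 hpf, with a median log2 fold change of −2.11. *prpf4* (−2.91 ± 0.16) and *snrpf* (−2.78 ± 0.08) were among its largest falls. Of 22 hnRNP proteins under other names, 18 were called lower and 3 higher, with a median of −1.49. *ptbp1b*, which encodes a polypyrimidine tract binding protein, fell by 3.53 ± 0.14 and *khdrbs1a* by 2.85 ± 0.06, while *raly* rose by 3.18 ± 0.41. Of 26 SR kinases and SR-related proteins, 21 were called lower and 1, the kinase gene *srpk3*, higher (2.40 ± 0.34), with a median of −1.11.

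The list of tissue-restricted splicing regulators moved otherwise. Of its 25 tested genes, 14 were called higher, against 37.2% of all genes, and 6 lower, against 26.8%, with a median of 1.46, against 0.28 for all genes. *elavl4*, a neuronal RNA-binding protein gene, rose by 6.08 ± 0.22, and *celf1* fell by 2.44 ± 0.11. *elavl4* is also 1 of the 6 neuron genes, so the 2 lists are not separate. Between the same 2 stages 6 of 6 neuron genes were called higher, with a median of 6.29, and 7 of 7 replication genes lower, with a median of −2.11. The summed level of the replication genes ran from 1483 to 2011 CPM at 6 ss and from 327 to 516 CPM at 96 hpf. Their course differed from that of the 39 members. From 6 ss to 24 hpf their median was 0.01, against −0.56 for the members. From 24 to 48 hpf it was −1.30, against −0.33. The part of cell division and cell type makeup in the changes of the 39 members was not tested.

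**Figure D5:**
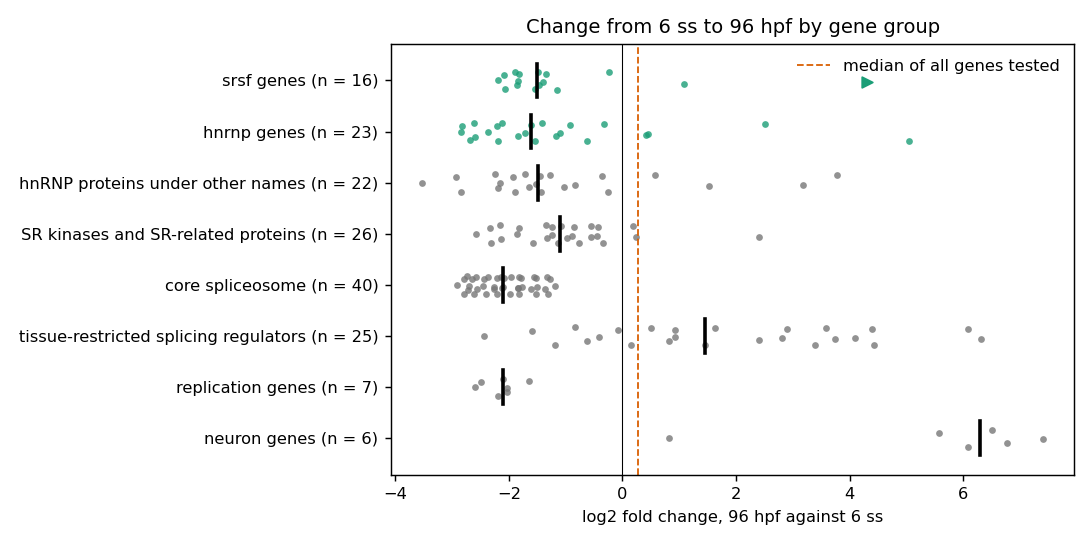
Log2 fold change from 6 ss to 96 hpf (x axis) of each gene of the 2 families and of 6 lists (y axis), with black bars at the median of each group, a dashed line at the median of all genes and a triangle at the lower bound of *srsf7b*. The families center at −1.51 and −1.61, near the −1.49 of hnRNP proteins under other names and below the 1.46 of tissue-restricted regulators. The core spliceosome lies lower, at −2.11, and SR kinases and SR-related proteins higher, at −1.11.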

How the data were processed

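Per the methods, the authors trimmed read 1 with fastp 0.21.0, mapped it with BWA-MEM 0.7.17-r1188 to Ensembl GRCz11 cDNA and counted with salmon, with no strand setting that would separate antisense genes. They deposited estimated counts per gene symbol, not normalized, in 1 table. 2 values were not whole and were rounded, and 0 columns were left unmapped. No use of molecular identifiers is stated for the counts, so depth speaks to counting error only.

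The filter kept 21638 genes, each seen (1 count or more) in 8 or more libraries, and they were tested in R 4.3.3 with edgeR 4.0.16 (TMM, quasi-likelihood, library series plus stage, Benjamini-Hochberg adjustment over all genes, adjusted p under 0.05). The study states no test of this kind. Pairs were symbols that differ in a final a, b or l, tested within series by exact permutation of log2 ratios with a pseudocount of 0.5. Alternatives included DESeq2 1.42.0, no TMM, other filters, no series term, single series, a left-out library of low depth and a replicate block. The script was tested on simulated data.

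Named genes were the largest calls from 6 ss to 96 hpf (up to 6 in each direction), the pairs that changed most and least, and up to 3 genes a list and direction, with others named after their values were seen. The members and lists were chosen with earlier results of these data known. Of the members, 39 matched symbols of RefSeq (GRCz12tu). The spans of 12 overlap another gene of the table there (*srsf1a*, *srsf3a*, *srsf5b*, *srsf6a*, *hnrnpa0b*, *hnrnpa0l*, *hnrnpa3*, *hnrnpaba*, *hnrnpc*, *hnrnph1*, *hnrnpl2* and *hnrnpul1l*). Whole spans were compared, without exons or strand. Only where the transcripts themselves overlap may unstranded counting fail to separate their reads.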

Additional observations from a re-analysis of the deposited data

Results flagged for a closer look

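The genes with the largest calls, the pairs that changed most and least and the 2 family sums were checked in each stage and series. In 25 of these 304 groups of libraries, the highest or lowest library lay apart from the others by Dixon's test on log2(CPM + 1). A chance rate of about 1 in 20 holds for values with a normal spread. It does not hold where all other libraries are at 0, as for *srsf7b* in the S series of 10 ss and *hnrnpa3* in the plain series of 6 ss. The 25 can therefore not be set against that rate. No cause was tested.

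*hnrnph1*, a gene of low counts, had 5 of them, all low. They were S4 of 6 ss at 1.31 (others 3.10 to 4.01), S7 of 10 ss at 2.01, plain replicate 1 of 20 ss at 2.75, plain replicate 5 of 48 hpf at 1.03 (others 3.83 to 4.64) and DrRyu B5 of 48 hpf at 0 (others 1.76 to 3.04). *hnrnpa3* had 3, with plain replicate 7 of 6 ss at 2.02 and 7 counts while the other plain libraries were at 0, plain replicate 1 of 20 ss at 0.49 and DrRyu B7 of 20 ss at 1.37. *hnrnph3* was at 0 in S4 of 96 hpf (others 2.34 to 4.06), the library with the lowest total, and *srsf7b* was at 0.79 in S1 of 10 ss with 2 counts.

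Among abundant members, *hnrnpaba* was low in DrRyu B2 of 24 hpf at 8.73 (others 9.06 to 9.32) and *hnrnph1l* in plain replicate 7 of 96 hpf at 5.47 (others 6.22 to 6.55). *hnrnpl2* was high in plain replicate 8 of 72 hpf at 6.94 and *hnrnpa0l* in S8 of 10 ss at 11.30. The summed *hnrnp* level was high in the same S8 library, at 13.46 on the log2 scale, and the summed *srsf* level in plain replicate 3 of 24 hpf, at 11.54. *srsf1b* was low in S4 of 10 ss at 3.42 and in plain replicate 8 of 72 hpf at 5.23. *srsf7a* was low in DrRyu B5 of 48 hpf at 5.21 and high in plain replicate 4 of 15 ss at 7.88. *hnrnpul1* was high in S2 of 15 ss at 7.00 and S8 of 96 hpf at 5.55. *srsf5b* was high in S2 of 15 ss at 7.27 and plain replicate 7 of 72 hpf at 6.50. *hnrnpul1l*, a gene of low counts, was high in plain replicate 2 of 15 ss at 2.59.

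The change from 24 to 48 hpf differed between the plain and DrRyu series for 15 members by the interaction in edgeR. The difference of the log2 fold changes, plain minus DrRyu, was −0.90 for *srsf5b*, −0.88 for *srsf1a*, −0.80 for *srsf4*, −0.70 for *srsf7a*, −0.70 for *srsf3b*, −0.65 for *srsf5a*, −0.58 for *srsf11* and −0.53 for *srsf2a*. Among the *hnrnp* genes it was −0.88 for *hnrnpabb*, −0.73 for *hnrnpaba*, −0.67 for *hnrnpd*, −0.61 for *hnrnpdl*, −0.53 for *hnrnpa0b*, −0.52 for *hnrnpub* and −0.49 for *hnrnph1l*. From 6 ss to 96 hpf the difference, plain minus S, was 0.88 for *hnrnpa0a* (edgeR adjusted p = 0.00252).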

How the results depend on the processing

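Of the 32 falls from 6 ss to 96 hpf, 31 were called in all 9 alternatives, as were 3 of the 4 rises. From 24 to 48 hpf 2 of 19 falls were. Where a value below differs from the one reported, the cause was not tested. The counts below stand without the shares of all genes in the same settings.

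From 6 ss to 96 hpf the *srsf* median was −1.72 without TMM and −1.25 with DESeq2, and the *hnrnp* median −1.82 without TMM, −1.45 in the plain series alone and −1.35 with DESeq2. *hnrnph1* was called higher in the plain series alone (0.73) and with DESeq2 (0.72). From 6 ss to 24 hpf 3 members were called higher without TMM, and 15 without TMM and 4 in the plain series fell by at least 1. The *srsf* median was −0.82 without TMM, −0.65 with no series term and −0.25 in the plain series, and the *hnrnp* median −0.95, −0.73 and −0.43.

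From 24 to 48 hpf DESeq2 called 5 members higher and the DrRyu series alone 2 lower. A rise of at least 1 was called for 1 member with the stricter filter, with no series term, in the plain series and with DESeq2, and a fall of at least 1 for 1 without TMM, 1 with no series term and 3 in the plain series. The *srsf* median was −0.53 in the plain series, 0.012 in the DrRyu series, of opposite sign, and −0.17 with DESeq2, and the *hnrnp* median −0.064 in the DrRyu series and −0.23 with DESeq2. From 48 to 96 hpf 1 member was called higher without TMM, 2 with no series term (1 by at least 1) and 1 with DESeq2. Falls of at least 1 numbered 3 without TMM, 3 with no series term, 4 in the plain series and 2 with DESeq2. The *srsf* median was −0.47, −0.49, −0.45 and −0.44 in these 4 settings, and the *hnrnp* median −0.67 without TMM, −0.58 with no series term and −0.64 with DESeq2.

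Among pairs, *srsf7a* against *srsf7b* from 24 to 48 hpf in the plain series passed with a pseudocount of 5 (−1.54), a value that the pseudocount sets. From 6 ss to 96 hpf 4 no longer passed. They were *hnrnpaba* against *hnrnpabb* in the S series without the library of lowest depth (−0.14), *hnrnpul1* against *hnrnpul1l* with a pseudocount of 0.1 (−1.28 plain, −2.66 S) and *hnrnpa1a* against *hnrnpa1b* in the plain series with a pseudocount of 5 (−0.45).

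Replicate numbers did not pair libraries, since deviations of same-numbered libraries had a median correlation of 0.0015 over 263 pairs. With the replicate number as a block 32 members were called lower and 4 higher from 6 ss to 96 hpf. Depth limits *srsf7b*, *hnrnpul1l*, *hnrnpa3* and *hnrnph3*, with few reads in a library.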
